A study of Saccharomyces cerevisiae W303 with 9 samples.

Results

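The 26S proteasome subunit genes are described here across 3 groups of budding yeast libraries. The 33 genes were taken by what they encode, in a choice made with earlier results of these data known. They are 14 subunits of the core particle (SCL1, PRE1 to PRE10 and PUP1 to PUP3), the 6 RPT ATPases, the non-ATPase subunits RPN1 to RPN3 and RPN5 to RPN13, and SEM1. They make up 33 of the 7127 features in the deposited count table, and all 33 were among the 5970 features with enough counts to test. Poly(A) RNA was sequenced from yeast of the W303 laboratory background grown in rich glucose medium (YPD) to mid-log phase, in 9 libraries that form 3 groups of 3. The groups are the construct strain, which lacks AIM29 and carries pmTDH3-ZPR1, the deletion strain, which lacks AIM29, and the wild type. The aim29 deletion is therefore common to the construct and the deletion strain. Each library comes from its own isolate, with 3 isolates per strain, and the labels do not say whether the isolates were built independently. The p-values measure the spread between isolates, which cannot be taken as that between independently built strains. TDH3 is a highly transcribed glycolytic gene, Zpr1 is a zinc finger protein that helps the elongation factor eEF1A to fold, and the letters pm in the name of the construct are not explained in the labels.

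The 26S proteasome degrades proteins that carry ubiquitin chains. Its core particle is a barrel of stacked rings, in which the outer alpha rings gate the entrance and the inner beta rings hold the protease sites. The regulatory particle caps the barrel: its base contains a ring of ATPases that unfold the substrate and subunits that bind ubiquitin, and its lid removes the ubiquitin chain. In budding yeast the subunit genes are known to be transcribed together by the factor Rpn4, which binds a short promoter sequence called the proteasome-associated control element and is itself a short-lived substrate of the proteasome.

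Total counts ran from 14380639 to 20140071 per library, so that 3 counts, the upper limit that a count of 0 allows, correspond to 0.143 to 0.213 CPM, the counts scaled to a common library size. AIM29 was at 7.46, 7.05 and 5.17 CPM in the construct libraries and 0.782, 3.87 and 3.63 CPM in the deletion libraries, against 76.0, 82.2 and 76.9 CPM in the wild type. ZPR1 was at 4857 to 5645 CPM in the construct libraries, 399.6 to 445 CPM in the deletion libraries and 322 to 337 CPM in the wild type. Both genes followed the labels in their large differences. AIM29 was also higher in each construct library than in any deletion library (log2 fold change 1.243 ± 0.343 SE, edgeR adjusted p = 0.065). ZPR1 was called higher in the deletion strain than in the wild type (0.356 ± 0.069, edgeR adjusted p = 0.0121). The construct libraries varied more among themselves than the others: the biological coefficient of variation, edgeR's estimate of the spread between replicates beyond counting error, was 14.8% in the construct group, while it was 3.78% in the deletion group and 5.22% in the wild-type group. The 6 genes that mark cells of mating type a summed to 1210 to 1730 CPM and the 4 that mark alpha cells to 29.6 to 40.8 CPM over the 9 libraries. Every subunit gene is a single locus of build R64 with no gene of the RefSeq annotation overlapping it. Each of its 50-base windows occurs once in that genome, so the subunit counts are not open to division among copies that share 50 bases exactly. Overlap with counted features that were not matched to this annotation was not checked.

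The promoters of the subunit genes were searched for the control element through which Rpn4 is known to act on them. Its frequency there is therefore not an independent finding. The control element GGTGGCAAA, searched on both strands from 250 bases before to 50 bases after the start codon, was found in 27 of the 33 subunit promoters (81.8%) and in 72 of all 6002 nuclear protein-coding promoters (1.2%). The other 6 subunit genes held a form that differs from it by 1 base, counted from 1 at the 5′ end of the element. PRE5, PUP1 and RPN8 held AGTGGCAAA (G1A), and RPN10, RPN13 and SEM1 held GGTGGCGAA (A7G). These forms were found in 0.716% and 0.45% of all promoters, and any of the 3 forms in 2.37%. Because G1A and A7G were looked for after the subunit promoters had been read, the count of 33 of 33 with one of the 3 forms is fixed by that choice. The sites below are those of the subunit genes whose mRNA level passed the test in at least 1 comparison, followed by the remaining genes without the full element. Each is shown 5′ to 3′ on the strand of its gene with 10 bases on either side, the element is in capitals, and the letters are those of the RefSeq R64 genome, which is the S288C strain and not W303.
SCL1, chrVII:475337-475365, minus strand, element on the opposite strand: cacacaccaaTTTGCCACCgtaaggatag
PUP2, chrVII:999226-999254, minus strand: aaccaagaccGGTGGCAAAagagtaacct
PRE10, chrXV:1018856-1018884, minus strand: cctctaaatcGGTGGCAAAaataagaaag
PRE3, chrX:435035-435063, plus strand: aacggaatccGGTGGCAAAaaagggaaaa
PUP3, chrV:349511-349539, minus strand: tggcactgccGGTGGCAAAaaagtgcaaa
PRE2, chrXVI:732184-732212, plus strand: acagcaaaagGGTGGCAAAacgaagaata
RPT1, chrXI:174048-174076, plus strand, element on the opposite strand: attaccgaatTTTGCCACCcgaaaactaa
RPN2, chrIX:220801-220829, minus strand: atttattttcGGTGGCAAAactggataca
PUP1, chrXV:631891-631919, minus strand, G1A: aacccggccgAGTGGCAAAataccaaaaa
RPN8, chrXV:817085-817113, minus strand, G1A: gggatacctcAGTGGCAAAtcgttactca
SEM1, chrIV:1202007-1202035, plus strand, A7G: tagtgctatgGGTGGCGAAcgtggtgggc
PRE5, chrXIII:901552-901580, plus strand, G1A: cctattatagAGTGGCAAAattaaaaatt
RPN10, chrVIII:498968-498996, plus strand, A7G, element on the opposite strand: caggcgggttTTCGCCACCggaatttaca
RPN13, chrXII:965656-965684, minus strand, A7G: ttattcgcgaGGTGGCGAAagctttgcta

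Each subunit promoter held exactly 1 site, counting the 3 forms together. The sites lay between 75 bases (RPT6) and 174 bases (PUP3) before the start codon, with a median of 111 bases, and 24 of the 33 read in the direction of the gene. For SEM1, the subunit gene with the largest change in level, the whole promoter window, chrIV:1201878-1202177 on the plus strand, is shown with the A7G form in capitals.
SEM1 promoter: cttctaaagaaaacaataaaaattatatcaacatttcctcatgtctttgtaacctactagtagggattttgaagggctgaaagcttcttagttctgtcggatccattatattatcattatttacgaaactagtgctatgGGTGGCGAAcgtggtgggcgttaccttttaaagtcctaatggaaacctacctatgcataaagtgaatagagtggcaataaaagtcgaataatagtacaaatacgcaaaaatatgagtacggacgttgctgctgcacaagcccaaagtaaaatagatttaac

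**Figure D1:**
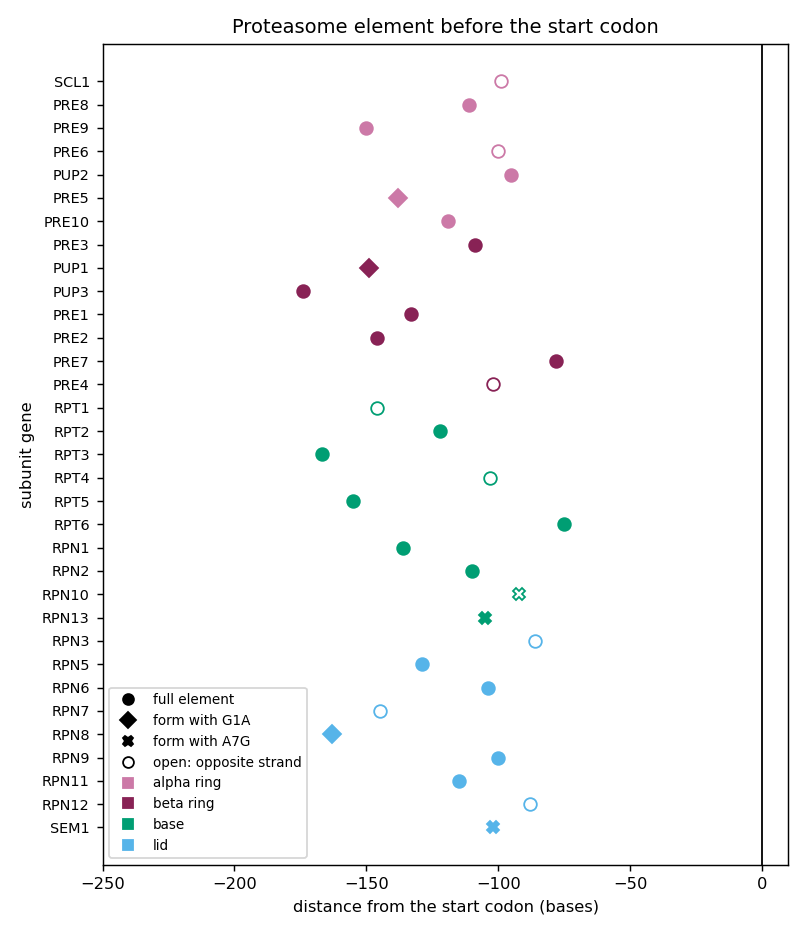
Distance in bases of the control element from the start codon (x axis) for the 33 subunit genes (y axis); circles mark GGTGGCAAA, diamonds the G1A form and crosses the A7G form, and open symbols lie on the opposite strand. The 33 sites fall between 75 and 174 bases before the start codon, with 24 on the strand of the gene and 9 on the opposite one.

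Without AIM29, the subunit mRNAs were higher as a family by a small margin. In the deletion strain 11 of the 33 subunit genes rose (33.3%), where 4.24% of all tested features rose, and 0 fell, also by DESeq2 and limma-voom, where 2.16% of all features fell (edgeR's quasi-likelihood test, Benjamini-Hochberg adjusted p under 0.05). All 33 log2 fold changes were above 0, between 0.03 and 0.53 with a median of 0.18, beside a median of 0.004 over all tested features. In 30 of the 33 genes each deletion library was above each wild-type library, where 21.1% of all features showed such a separation. The exceptions were PRE8, RPT4 and RPN3, whose libraries overlapped. CPM is a share of the library's mRNA, so a higher share of these mRNAs and a higher amount per cell cannot be told apart. The count of 11 depended on which libraries entered the fit, and the share of all features called higher (in brackets) moved too. The count was 27 (14.1%) with the deletion and wild-type libraries alone and 21 (9.6%) without construct replicate 3. It was 3 without wild-type replicate 1 (2.3%), wild-type replicate 3 (2.0%) or deletion replicate 2 (2.1%). It was 4 without deletion replicate 1 (2.6%) or 3 (2.3%), and 5 without wild-type replicate 2 (2.4%). Without composition factors, which scale libraries by their total alone, it was 3, while 32 of the 33 log2 fold changes were above 0; over all features 187 then rose and 316 fell, against 253 and 129 with them.

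**Figure D2:**
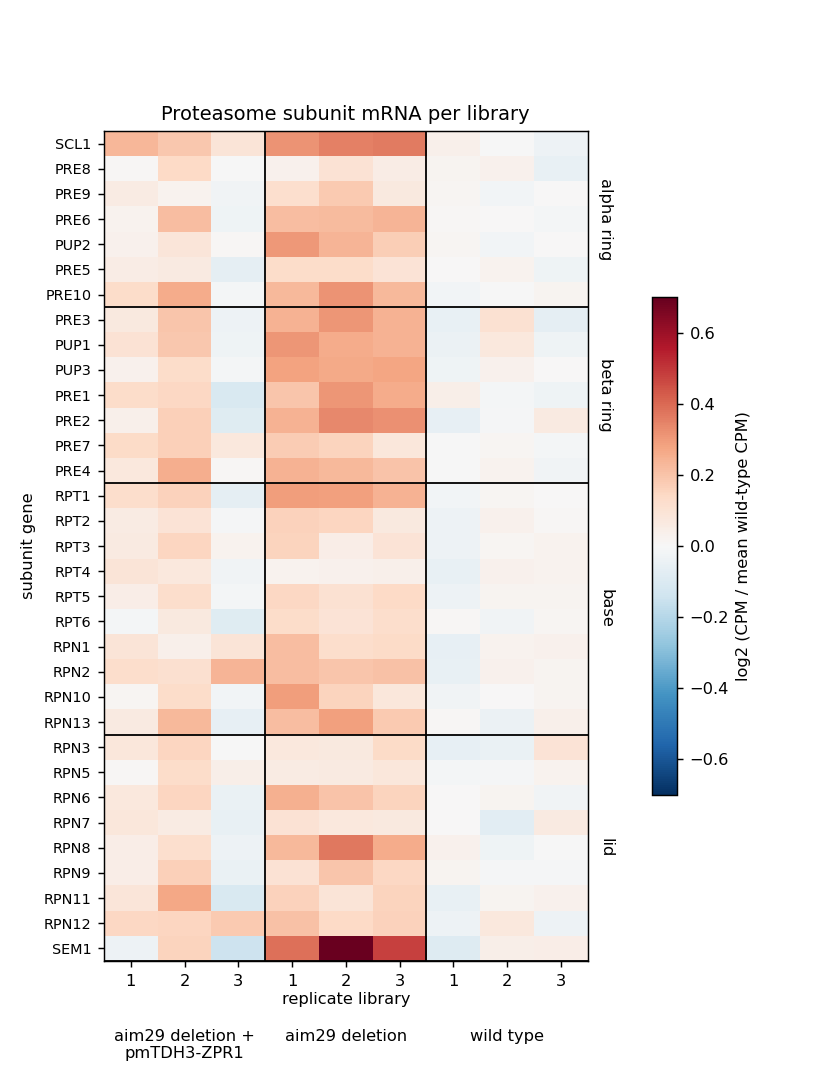
Log2 ratio of each library's CPM to the mean wild-type CPM (colour; red is higher, blue lower) for the 33 subunit genes in rows, grouped by subcomplex, and the 9 libraries in columns. In each of the 3 deletion libraries 33 of 33 genes lie above the wild-type mean, and in the construct libraries 31, 33 and 9 do.

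In the alpha ring of the core particle 3 of 7 genes rose in the deletion strain, where 4.24% of all tested features rose, and the ring's median log2 fold change was 0.23. SCL1 (YGL011C, chrVII:474489-475247), an alpha ring subunit, had 250.3, 257 and 259 CPM in the deletion libraries and 207, 201 and 196 CPM in the wild type. The groups did not overlap, and SCL1 had the largest change of the core particle (log2 fold change 0.34 ± 0.052 SE, 1.27-fold, edgeR adjusted p = 0.0029). PUP2 (YGR253C) had 249.7, 239 and 228 CPM in the deletion libraries and 204, 199.6 and 203 CPM in the wild type (0.24 ± 0.051, edgeR adjusted p = 0.0206). PRE10 (YOR362C) had 259, 275 and 259 CPM in the deletion libraries and 219, 221 and 224 CPM in the wild type (0.26 ± 0.067, edgeR adjusted p = 0.0488). Both genes were higher in each deletion library than in any wild-type library, but PRE10 stood close to the threshold. The other 4 alpha ring genes did not pass the test. PRE6 (YOL038W) averaged 230.2 ± 1.99 CPM in the deletion strain and 197 ± 1.58 CPM in the wild type (SD, n = 3 each), with a log2 fold change of 0.23 and an edgeR adjusted p of 0.0593. PRE9 (YGR135W), the only core particle gene known to be dispensable for growth, averaged 216 ± 8.35 CPM in the deletion strain and 198 ± 2.43 CPM in the wild type. PRE5 (YMR314W) averaged 266 ± 3.83 CPM in the deletion strain and 245 ± 4.42 CPM in the wild type. The smallest difference of the ring was in PRE8 (YML092C), with 198 ± 5.18 CPM in the deletion strain and 189.6 ± 5.78 CPM in the wild type.

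The beta ring held the largest share of called genes, 4 of 7, with a median log2 fold change of 0.27, where 4.24% of all tested features rose. Its catalytic subunits, which carry the protease sites, all rose. PRE2 (YPR103W), which carries the chymotrypsin-like site, had 282, 299.5 and 296 CPM in the deletion libraries and 228, 236 and 248 CPM in the wild type (0.30 ± 0.067, 1.23-fold, edgeR adjusted p = 0.025). PUP1 (YOR157C), which carries the trypsin-like site, had 204, 197 and 195 CPM in the deletion libraries and 159.9, 173 and 161 CPM in the wild type (0.27 ± 0.064, 1.21-fold, edgeR adjusted p = 0.0304). PRE3 (YJL001W), which carries the caspase-like site and is the only subunit gene with an intron in its coding sequence, had 205, 215 and 205 CPM in the deletion libraries and 167, 187 and 166 CPM in the wild type (0.27 ± 0.069, 1.2-fold, edgeR adjusted p = 0.0483). All 3 genes separated the deletion from the wild-type libraries, and PRE3 lay close to the threshold. PUP3 (YER094C), a beta subunit without a protease site, had 288, 285 and 287 CPM in the deletion libraries and 232, 242 and 238 CPM in the wild type. The SD of its deletion libraries was 1.82 CPM, and the difference was 0.28 ± 0.051 on the log2 scale (1.21-fold, edgeR adjusted p = 0.00903). PRE1 (YER012W), another beta subunit, had 259, 281 and 271 CPM in the deletion libraries and 233, 225 and 222 CPM in the wild type. PRE1 had the largest log2 fold change among the subunit genes that were not called (0.25 ± 0.070, edgeR adjusted p = 0.0574), although its groups did not overlap. PRE4 (YFR050C) averaged 282 ± 4.28 CPM in the deletion strain and 241 ± 4.02 CPM in the wild type (edgeR adjusted p = 0.062). PRE7 (YBL041W) averaged 219 ± 7.71 CPM in the deletion strain and 199 ± 2.06 CPM in the wild type (edgeR adjusted p = 0.128).

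Of the 10 base genes 2 rose in the deletion strain, with a median log2 fold change of 0.14, where 4.24% of all tested features rose. Among the 6 ATPases, which unfold substrates and feed them into the core particle, RPT1 alone was called and the median was 0.12. RPT1 (YKL145W) had 321, 319.8 and 310.5 CPM in the deletion libraries and 259, 264 and 263 CPM in the wild type (0.28 ± 0.061, 1.21-fold, edgeR adjusted p = 0.0245). RPT4 (YOR259C) had 288, 289.9 and 291 CPM in the deletion libraries and 273, 289 and 289 CPM in the wild type. RPT4 thus overlapped between the groups and had the smallest log2 fold change of the 33 genes, 0.03 ± 0.051 (edgeR adjusted p = 0.787), which became -0.022 without composition factors. The other ATPase genes, RPT2 (YDL007W), RPT3 (YDR394W), RPT5 (YOR117W) and RPT6 (YGL048C), had log2 fold changes of 0.13, 0.10, 0.13 and 0.12, and none was called. RPN2 (YIL075C), a large scaffold subunit of the base, had 608, 598 and 603 CPM in the deletion libraries and 505, 533 and 530.4 CPM in the wild type (0.21 ± 0.051, 1.15-fold, edgeR adjusted p = 0.0381). The other scaffold, RPN1 (YHR027C), averaged 692 ± 25.4 CPM in the deletion strain and 620.2 ± 20.8 CPM in the wild type, and its edgeR adjusted p was 0.0911. Neither of the ubiquitin receptor genes RPN10 and RPN13 passed the test. RPN10 (YHR200W) averaged 159 ± 12.2 CPM in the deletion strain and 140.3 ± 2.32 CPM in the wild type (0.18 ± 0.065, edgeR adjusted p = 0.135). RPN13 (YLR421C) averaged 142 ± 5.32 CPM in the deletion strain and 121 ± 3.16 CPM in the wild type (0.23 ± 0.070, edgeR adjusted p = 0.0821).

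In the lid 2 of 9 genes rose, with a median log2 fold change of 0.15, where 4.24% of all tested features rose. SEM1 (YDR363W-A, chrIV:1202128-1202397), a very small disordered lid protein that is also part of other complexes such as TREX-2, had 112, 139 and 119 CPM in the deletion libraries and 80.6, 88.2 and 88.7 CPM in the wild type. These values separated the groups and gave the largest change of all subunit genes (0.53 ± 0.095, 1.44-fold, edgeR adjusted p = 0.0079). At 270 coding bases SEM1 is also the shortest of the 33, and the 236 tested genes of under 300 coding bases had a median log2 fold change of 0.094 in the same comparison. Whether length played a part in SEM1's change was not tested. RPN8 (YOR261C), the partner of the deubiquitinating subunit Rpn11, had 247, 272 and 252 CPM in the deletion libraries and 215, 206 and 211 CPM in the wild type (0.29 ± 0.058, 1.22-fold, edgeR adjusted p = 0.0145). RPN11 itself (YFR004W) averaged 241 ± 6.83 CPM in the deletion strain and 219 ± 6.62 CPM in the wild type (edgeR adjusted p = 0.372). The remaining lid genes, RPN3 (YER021W), RPN5 (YDL147W), RPN6 (YDL097C), RPN7 (YPR108W), RPN9 (YDR427W) and RPN12 (YFR052W), had log2 fold changes between 0.067 (RPN5) and 0.20 (RPN6), and none was called.

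**Figure D3:**
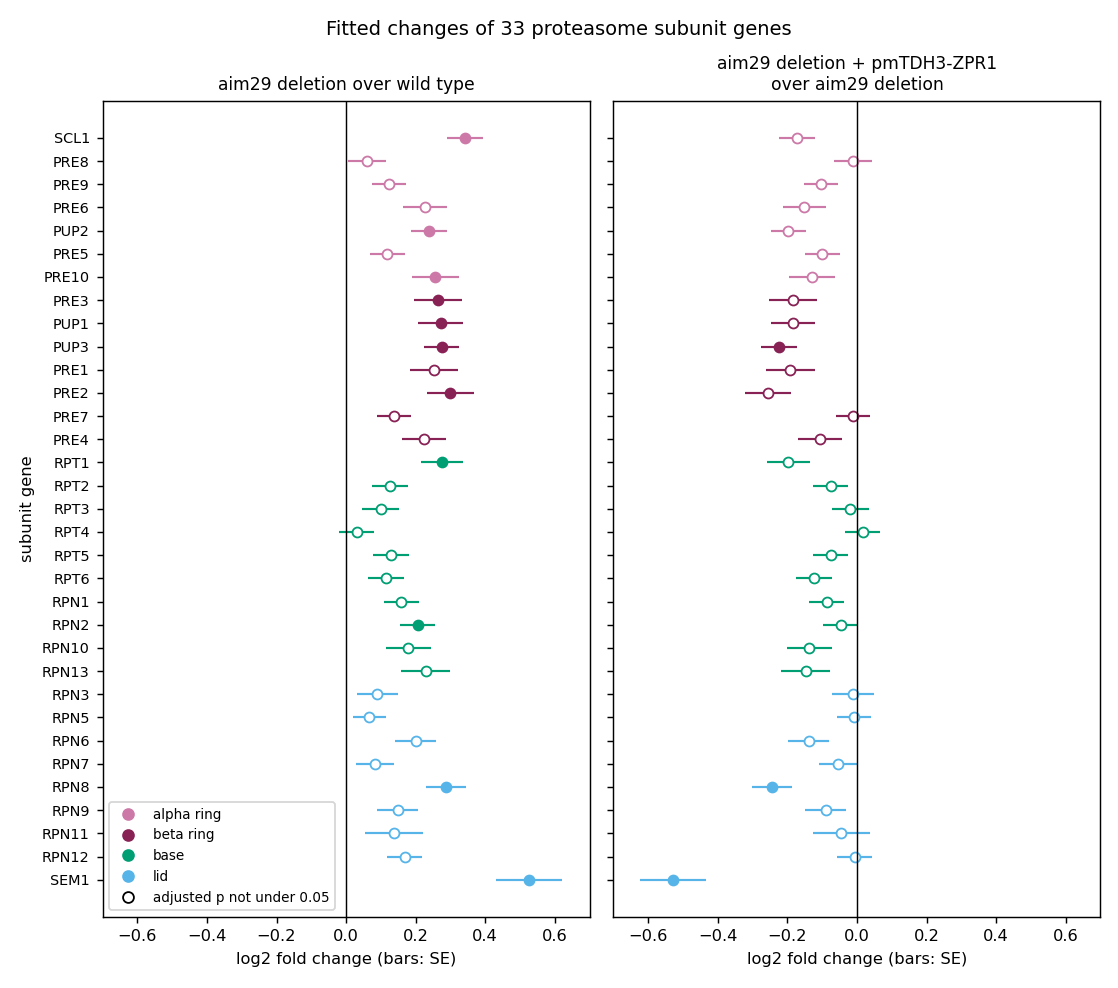
Log2 fold changes with SE bars (x axis) of the 33 subunit genes (y axis) in the deletion strain over the wild type (left) and in the construct strain over the deletion strain (right); filled points have an edgeR adjusted p under 0.05. In the left panel all 33 points lie right of 0 and 11 are filled, and in the right panel 32 lie left of 0 and SEM1, PUP3 and RPN8 are filled.

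The core particle stood further above the wild type than the regulatory particle in every deletion library. Of the 14 core genes 7 rose with a median log2 fold change of 0.25, and of the 19 regulatory particle genes 4 rose with a median of 0.15. Over all tested features 4.24% rose. Summed over its genes, the core particle had 3412, 3478 and 3385 CPM in the deletion libraries and 2926, 2966 and 2909 CPM in the wild type, a ratio of means of 1.17. The regulatory particle summed to 5560, 5489 and 5447 CPM in the deletion libraries and 4830, 4946 and 5005 CPM in the wild type, a ratio of 1.12. Within each library, the median log2 ratio to the wild-type mean of the core genes minus that of the regulatory genes was 0.069, 0.109 and 0.097 in the deletion libraries, while it was 0.039, -0.004 and -0.039 in the wild type. The deletion libraries were thus all above the wild-type ones in this difference, but by little beside the spread of the wild type. No test was made of it because the members were chosen with earlier results of these data known. Core genes are also shorter: 1125 tested genes of at least 500 and under 900 coding bases had a median log2 fold change of 0.024, and 2006 genes of 900 to 1700 coding bases one of -0.001.

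**Figure D4:**
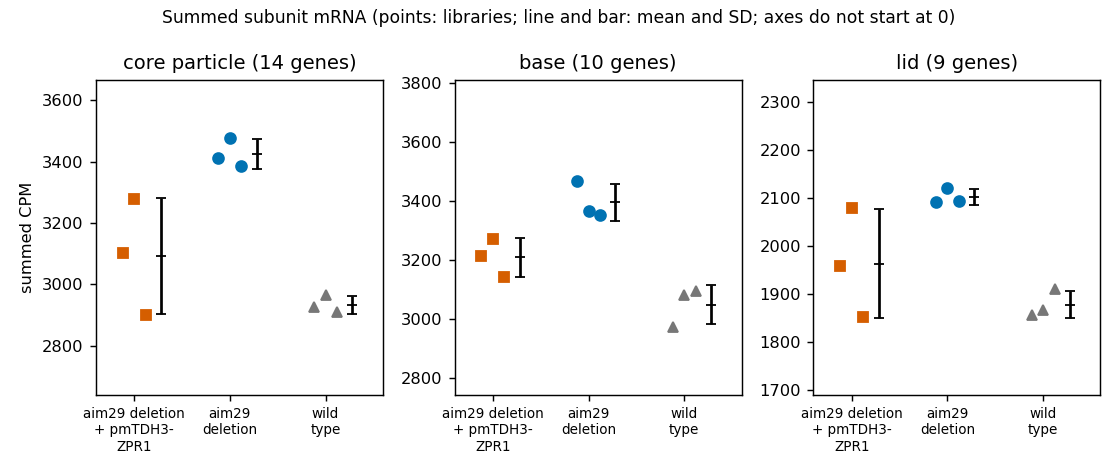
Summed CPM (y axes, which do not start at 0) of the core particle, base and lid genes in the libraries of the construct strain, the deletion strain and the wild type; points are libraries, and the line and bar beside them the mean and SD. The core particle averages 3093 ± 190.0 CPM in the construct strain, 3425 ± 47.8 CPM in the deletion strain and 2934 ± 29.3 CPM in the wild type.

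With pmTDH3-ZPR1 in the deletion strain, most subunit mRNAs were lower than in the deletion strain, though few passed the test. In the construct strain 3 of the 33 genes fell relative to the deletion strain (3.72% of all tested features fell) and 0 rose (1.66% of all features rose, and DESeq2 and limma-voom also called 0 subunit genes higher), by edgeR's quasi-likelihood test at an adjusted p under 0.05. Of the 33 log2 fold changes 32 were below 0, RPT4 being at 0.016, and the median was -0.11 beside 0.003 over all features; without composition factors 7 were above 0, and over all features 196 rose and 181 fell, against 99 and 222 with them. With 1 library left out the median lay between -0.165, without construct replicate 2, and -0.084. Above 0 were 7 of the 33 without construct replicate 3, 4 without deletion replicate 1, and 1 or 2 without any other library. In 15 of 33 genes each construct library was below each deletion library, where 13.5% of all features were separated in this direction. This comparison and that of the deletion with the wild type share the deletion libraries, so opposite signs in the 2 comparisons are not independent of each other. The count of 3 became 13 without construct replicate 2 and 1 without wild-type replicate 2 or 3, without any 1 of the deletion libraries or without construct replicate 1. It was also 1 without composition factors, in the fit of the 6 libraries alone and with the replicate number as a block. Over all features 6.8% fell without construct replicate 2, and 1.9% to 4.4% in these fits where the count was 1.

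SEM1 fell to 83.8, 95.5 and 77.5 CPM in the construct libraries, against 112, 139 and 119 CPM in the deletion libraries (-0.53 ± 0.095, edgeR adjusted p = 0.00835). Its construct values were all below the deletion values, and its call held without each of the 9 libraries in turn. The tested genes of under 300 coding bases had a median of -0.082 in this comparison. RPN8 had 217, 228 and 206 CPM in the construct libraries against 247, 272 and 252 CPM in the deletion libraries (-0.24 ± 0.057, edgeR adjusted p = 0.0338). PUP3 had 242, 259 and 235 CPM in the construct libraries against 288, 285 and 287 CPM in the deletion libraries (-0.22 ± 0.051, edgeR adjusted p = 0.0281). Neither of these genes overlapped between the groups. PRE2 had 243, 267 and 224 CPM in the construct libraries and 282, 299.5 and 296 CPM in the deletion libraries, and its log2 fold change of -0.26 ± 0.067 was the most negative of those not called (edgeR adjusted p = 0.0551). PUP2 had 207, 215 and 203 CPM in the construct libraries and 249.7, 239 and 228 CPM in the deletion libraries (-0.20 ± 0.051, edgeR adjusted p = 0.0514). Both stood just past the threshold, with no overlap between the groups. RPT4, the 1 gene above 0, had 302, 298 and 278 CPM in the construct libraries and 288, 289.9 and 291 CPM in the deletion libraries (edgeR adjusted p = 0.886).

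By subcomplex, 1 of 14 core genes fell in the construct strain relative to the deletion strain (median -0.16), 0 of 10 base genes (median -0.081) and 2 of 9 lid genes (median -0.055). Over all tested features 3.72% fell in this comparison. The lid median was -0.144 without construct replicate 2 and -0.019 without construct replicate 3. Of the base genes 2 had an unadjusted p under 0.05 by edgeR's test, as did 1343 of all 5970 tested features, and DESeq2 and limma-voom called 0. Summed CPM of the core particle was 3101, 3278 and 2899 in the construct libraries against 3412, 3478 and 3385 in the deletion libraries, a ratio of means of 0.903. For the regulatory particle the sums were 5173, 5352 and 4994 CPM in the construct libraries against 5560, 5489 and 5447 CPM in the deletion libraries, a ratio of 0.941. The core minus regulatory difference per library was 0.001, 0.039 and 0.008 in the construct libraries against 0.069, 0.109 and 0.097 in the deletion libraries, with no overlap.

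Most subunit genes ordered the construct libraries alike. Construct replicate 2 was the highest of its group for 26 of the 33 genes, and replicate 3 was the lowest for 29. How often all tested features showed this order was not counted, so it cannot be called particular to the subunit genes. The median log2 ratio of the 33 genes to the wild-type mean was 0.063, 0.149 and -0.023 in the construct libraries, against 0.214, 0.193 and 0.158 in the deletion libraries and medians of -0.017, 0.014 and 0.005 in the wild type. The whole family summed to 8274, 8630 and 7893 CPM in the construct libraries, 8972, 8967 and 8832 CPM in the deletion libraries and 7756, 7912 and 7914 CPM in the wild type. One construct library thus fell within the wild-type range of sums, and the other 2 lay between the wild type and the deletion. The coefficient of variation of a subunit gene between libraries had a median of 5.34% in the construct group, 2.67% in the deletion group and 2.27% in the wild type, while the medians over all tested features were 9.65%, 4.7% and 4.75%.

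Between the construct strain and the wild type no subunit gene was called. The edgeR test called 0 of 33 in either direction, with 4 at an unadjusted p under 0.05 beside 764 of all 5970 tested features, and DESeq2 and limma-voom also called 0; over all tested features edgeR called 0.117% higher and 0.067% lower. The log2 fold changes were above 0 in 31 of 33 genes, with a median of 0.061 beside 0.008 over all features. Without construct replicate 2 the median was 0.018 and 26 of 33 were above 0, and without construct replicate 3 the median was 0.106. In 6 genes each construct library was above each wild-type library, where 7.81% of all features were separated in this way. SCL1 had the largest difference, with 237, 229.5 and 214 CPM in the construct libraries and 207, 201 and 196 CPM in the wild type (0.17 ± 0.052, edgeR adjusted p = 0.27). RPT6 was the lowest, with 288, 306 and 274 CPM in the construct libraries and 293, 286 and 294 CPM in the wild type (-0.009 ± 0.051, edgeR adjusted p = 0.959). SEM1, which differed most in both other comparisons, had 83.8, 95.5 and 77.5 CPM in the construct libraries and 80.6, 88.2 and 88.7 CPM in the wild type, with overlapping groups and a log2 fold change of -0.003 ± 0.095. A p above the threshold does not show that the levels were equal: the SE of 0.048 to 0.095 on the log2 scale bounds what these libraries could resolve.

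Set per kilobase of coding length, so that genes can be compared with each other, the subunit mRNAs lay within a narrow band. In the wild type the highest level was 384 ± 7.81 CPM per kb (PUP3) and the lowest 148 ± 1.79 CPM per kb (RPN9) (SD, n = 3), a ratio of 2.6. The ratio of highest to lowest was 2.58 in the construct strain and 2.84 in the deletion strain. Over the 5721 tested protein-coding genes the wild-type median was 43.8 CPM per kb, and the subunit genes exceeded between 80.9% (RPN9) and 92.7% (PUP3) of them. The median level of core genes was 283 CPM per kb in the construct strain, 313 CPM per kb in the deletion strain and 266 CPM per kb in the wild type. That of regulatory particle genes was lower, at 213 CPM per kb in the construct strain, 225 CPM per kb in the deletion strain and 207 CPM per kb in the wild type. The order in the wild type began with PUP3, PRE1 (379.8 ± 9.95 CPM per kb), PRE5 (347 ± 6.27), SEM1 (318 ± 16.8) and PRE4 (301 ± 5.02), and ended with RPN12 (162 ± 7.11), RPN3 (156 ± 9.45) and RPN9. Neighbours in this order were apart in all libraries after PRE1, PRE5, PRE4, PRE8, RPN11, RPN6 and RPN10, and overlapped everywhere else, as PUP3 and PRE1 did. In the deletion strain SEM1 stood at 457 CPM per kb, next to PUP3 at 464 and PRE1 at 453, whereas in the construct strain it was at 317.

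**Figure D5:**
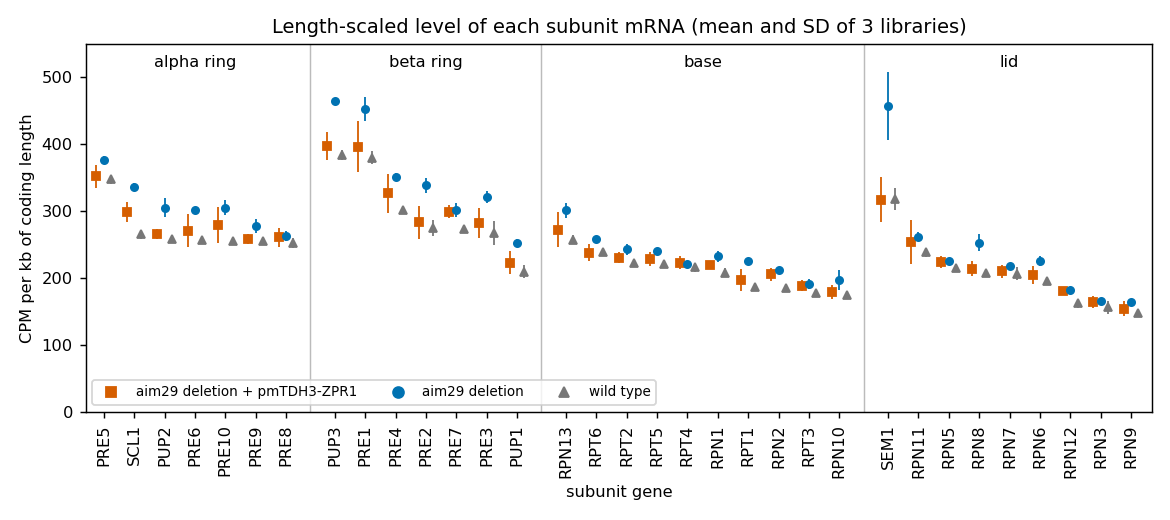
CPM per kilobase of coding length (y axis) of the 33 subunit genes (x axis, grouped by subcomplex and sorted by wild-type level), as mean and SD of the 3 libraries of the construct strain (squares), the deletion strain (circles) and the wild type (triangles). Core particle medians are 283, 313 and 266 CPM per kb in these groups, and SEM1 is at 317, 457 and 318 CPM per kb.

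Genes that act with the proteasome were followed as 4 lists of 31 genes in all. In the deletion strain 7 of 31 rose relative to the wild type and 0 fell (edgeR adjusted p under 0.05; DESeq2 and limma-voom also called 0 lower), with a median log2 fold change of 0.16. Over all tested features 4.24% rose and 2.16% fell. RPN4 (YDL020C), which encodes the transcription factor of the subunit genes, had 188, 182 and 167 CPM in the deletion libraries and 87.8, 107 and 123 CPM in the wild type (0.76 ± 0.11, 1.69-fold, edgeR adjusted p = 0.00216). RPN4 thus separated the groups with a larger log2 fold change than any subunit gene, and its call held without each of the 9 libraries in turn. In the construct strain RPN4 fell to 123, 145 and 128 CPM, against those deletion values (-0.44 ± 0.109, edgeR adjusted p = 0.0436). That call was lost without wild-type replicate 2, any 1 of the deletion libraries or construct replicate 1, and also without composition factors and with the replicate block. Against the wild type the construct strain's RPN4 difference was 0.32 ± 0.11 and not called (edgeR adjusted p = 0.295), and its highest wild-type library, at 123 CPM, was next to its lowest construct library. Of the other 7 genes of this list, which hold the Rpn4 degradation enzymes and transcription factors that act on RPN4, YAP1, a factor of the oxidative stress response, rose in the deletion strain to 191, 186 and 188 CPM, against 144, 156 and 157 CPM in the wild type (0.31 ± 0.056, edgeR adjusted p = 0.00797). The genes for the ubiquitin ligase Ubr2, which targets Rpn4, and its partners gave log2 fold changes near 0 in the same comparison: UBR2 at -0.006, MUB1 at 0.057 and RAD6 at 0.008, none of them called.

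Of 10 assembly factor genes 2 rose in the deletion strain, with a list median of 0.16, where 4.24% of all tested features rose. UMP1, the maturation factor of the core particle, had 112, 117 and 110.1 CPM in the deletion libraries and 86.8, 93.1 and 90.9 CPM in the wild type (0.32 ± 0.080, edgeR adjusted p = 0.0381). ADD66, a chaperone of the alpha ring, had 58.1, 62.4 and 63.1 CPM in the deletion libraries and 49.4, 49.4 and 54.1 CPM in the wild type (0.26 ± 0.068, edgeR adjusted p = 0.0454). Of 6 genes for proteasome-associated proteins 2 rose (list median 0.29). ECM29, whose protein binds core and regulatory particle together, had 127, 133 and 142 CPM in the deletion libraries and 104, 108 and 114 CPM in the wild type (0.31 ± 0.080, edgeR adjusted p = 0.0483). STS1, a factor for nuclear localisation of the proteasome, had 115, 120.5 and 116 CPM in the deletion libraries and 106, 91.8 and 91.7 CPM in the wild type (0.28 ± 0.072, edgeR adjusted p = 0.0483). Each of these 4 genes was higher in all deletion libraries, and each adjusted p was near the threshold. Of 7 genes for substrate delivery and the Cdc48 unfoldase 1 rose (list median 0.16), UFD1, a Cdc48 cofactor, with 58.7, 58.7 and 62.9 CPM in the deletion libraries and 49.1, 48.9 and 49.3 CPM in the wild type (0.29 ± 0.064, edgeR adjusted p = 0.022). The count of 7 was 18 in the fit of the 6 libraries alone, 2 without composition factors, and 4 with median-of-ratios factors and with the replicate block. It was 13 and 16 without construct replicate 2 or 3, 3 without wild-type replicate 1, and 2 without any other 1 of the wild-type or deletion libraries. Over all features 14.1% rose in the fit of the 6 libraries alone and 6.6% and 9.6% without construct replicate 2 or 3. Without 1 of the wild-type or deletion libraries 2.0% to 2.6% rose.

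In the construct strain relative to the deletion strain 2 of the 31 genes fell and 0 rose, where 3.72% of all tested features fell and 1.66% rose, with a median of -0.089. Beside RPN4 this was NPL4, the other cofactor of the Cdc48 pair, with 63.8, 65.3 and 57.9 CPM in the construct libraries against 75.3, 80.5 and 74.6 CPM in the deletion libraries (-0.30 ± 0.076, edgeR adjusted p = 0.0475). Leaving out a library moved this count of 2 to between 0 and 4. It was 0 without wild-type replicate 2 or any 1 of the deletion libraries, and 1 without wild-type replicate 3 or construct replicate 1. It was 4 without construct replicate 2, where 6.8% of all features fell, while 1.9% to 4.4% fell in the other fits named. No assembly factor was called by edgeR, DESeq2 or limma-voom. In edgeR's test 3 of the 10 had an unadjusted p under 0.05, as did 1343 of all 5970 features: TMA17, a chaperone of base assembly, with a log2 fold change of 0.42 ± 0.168, ADD66 with -0.15 ± 0.067 and UMP1 with -0.18 ± 0.080. No gene of the proteasome-associated list was called by edgeR or DESeq2 and 1 was by limma-voom, and the 2 of 6 with an unadjusted p under 0.05 were ECM29 (-0.26 ± 0.080) and FUB1 (-0.36 ± 0.119). Between the construct strain and the wild type, 0 of the 31 genes were called by edgeR, DESeq2 or limma-voom, and 5 had an unadjusted p under 0.05 in edgeR's test, as did 764 of all 5970 features. The genes of lowest p in each list, with their log2 fold changes, were POC4 (0.28 ± 0.118) and PBA1 (0.15 ± 0.073) of the assembly factors, HUL5 (0.18 ± 0.081) and STS1 (0.13 ± 0.072) of the associated proteins, UFD1 (0.15 ± 0.063) and DDI1 (0.15 ± 0.076) of substrate delivery, and YAP1 (0.19 ± 0.055) beside RPN4.

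The control element is not limited to subunit genes, and 42 of the 45 other genes with GGTGGCAAA in the promoter window were tested. In the deletion strain 7 of these 42 rose and 0 fell (16.7% rose; 1 fell by DESeq2 and 3 by limma-voom), beside 4.24% of all tested features that rose and 2.16% that fell, with a median log2 fold change of 0.096. Among the subunit genes, 8 of the 27 with GGTGGCAAA rose (median 0.16), as did 3 of the 6 with G1A or A7G (median 0.25). The largest called rise of the 42 was in SGT2, which encodes a co-chaperone of tail-anchored membrane proteins, with 824, 835 and 819.7 CPM in the deletion libraries and 543, 548 and 549 CPM in the wild type (0.60 ± 0.043, edgeR adjusted p = 2.65e-05). PRD1, a metallopeptidase gene, had 198, 207 and 213 CPM in the deletion libraries and 167, 172 and 163 CPM in the wild type (0.30 ± 0.053, edgeR adjusted p = 0.0070). AHC2, for a subunit of a histone acetyltransferase complex, had 73.2, 88.7 and 81.3 CPM in the deletion libraries and 60.3, 62.3 and 60.6 CPM in the wild type (0.41 ± 0.079, edgeR adjusted p = 0.0121). These 3 genes separated the groups, as did YAP1, given above. CUZ1, for a zinc finger protein that binds the proteasome and Cdc48, had 106, 114 and 113 CPM in the deletion libraries and 81.0, 83.7 and 89.6 CPM in the wild type (0.39 ± 0.087, edgeR adjusted p = 0.0236). The remaining called genes were ECM29 and UBA1, the ubiquitin-activating enzyme gene. In the construct strain relative to the deletion strain 3 of the 42 fell (7.1%) and 0 rose, beside 3.72% of all tested features that fell and 1.66% that rose. SGT2 had 562, 558 and 544 CPM in the construct libraries against 824, 835 and 819.7 CPM in the deletion libraries (-0.57 ± 0.043, edgeR adjusted p = 3.87e-05), and its construct libraries overlapped the wild-type ones. AHC2 (-0.43 ± 0.079, edgeR adjusted p = 0.0104) and PRD1 (-0.22 ± 0.053, edgeR adjusted p = 0.0388) were the other 2. Between the construct strain and the wild type 0 of the 42 were called by edgeR, DESeq2 or limma-voom, with 7 at an unadjusted p under 0.05 beside 764 of all 5970 features. The count of 7 was 17 in the fit of the 6 libraries alone and 12 without construct replicate 3, where 14.1% and 9.6% of all features rose. It was 2 without wild-type replicate 3 and 3 without wild-type replicate 1 or deletion replicate 2 or 3. Without wild-type replicate 2 or deletion replicate 1 it was 4. Without 1 of these wild-type or deletion libraries 2.0% to 2.6% of all features rose. The count of 3 was 1 in the fit of the 6 libraries alone and without deletion replicate 2, where 2.1% and 1.9% of all features fell.

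In 7 cases the promoter window of a neighbouring gene held the same site as a subunit gene. These pairs were MPO1 with SCL1, YOL038C-A with PRE6, GCD1 with RPT4, ALG13 with RPT6, NOP14 with RPN5, YTH1 with RPN7 and YPI1 with RPN11. None of the 7 neighbours was called in any of the 3 comparisons by edgeR or DESeq2. In the deletion strain against the wild type 4 had an unadjusted p under 0.05 in edgeR's test, as did 1302 of all 5970 features, and limma-voom called 2 higher and 1 lower. For MPO1 the deletion libraries held 14.3, 14.9 and 15.6 CPM and the wild-type libraries 15.9, 15.7 and 14.3 CPM, overlapping, while SCL1 across the shared region separated the same libraries. NOP14, also not called by edgeR, had 351, 333 and 342 CPM in the deletion libraries and 388, 371 and 393 CPM in the wild type. All its deletion libraries were thus the lower ones. MPO1 and NOP14 were the 2 neighbours with a log2 fold change below 0 in this comparison. The other 5 were above 0, and the median of the 7 was 0.08. In 4 of the 7 each deletion library was above each wild-type library, as in 21.1% of all features.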

How the data were processed

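The authors deposited 1 table of unnormalised read counts, whole numbers per annotated feature in each of 9 libraries, per the file header and its values. The submitters' processing notes name FastQC 0.11.5, STAR 2.7.0, DESeq2 1.34.0 and build R64. How reads were counted, by which strand setting and with what treatment of multi-mapping reads, is not given in the sources used here. All 9 sample columns were used. Of 7127 features 6047 were matched by locus tag to the RefSeq R64 annotation, and 1080, including open reading frames that annotation does not place, were not.

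In R 4.3.3, edgeR 4.0.16 (filterByExpr, which kept 5970 features, TMM factors, glmQLFit and glmQLFTest) was fitted to all 9 libraries with a term for the group alone, which leaves 6 residual degrees of freedom. The groups thus share 1 estimate of a spread that differs between them. P-values were adjusted by Benjamini-Hochberg over all features of a comparison, with a threshold of 0.05. Summed levels and CPM use TMM-scaled library sizes, and ± in a log2 fold change is its standard error from the fit. The procedure was tested on simulated data. Promoters were read from the R64 genome from 250 bases before to 50 after the start codon, since the promoter table first planned was not used here.

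Samples were grouped by their titles. Totals and the CPM of 3 counts are given with the results; they cover counting error only. Chi-square tests of counts found each pair of replicates to differ beyond sampling noise (2.89 to 64 per degree of freedom). Alternatives were median-of-ratios size factors, library totals without composition factors, leaving out the low-count filter, a filter of 100 counts in 3 libraries, limma-voom (limma 3.58.1) with quality weights, DESeq2 1.42.0, the replicate number as a block, a fit of the 6 libraries compared, an adjusted p under 0.01, the motif GTGGCAAA and leaving out each library. The forms AGTGGCAAA and GGTGGCGAA and a window of 500 bases before the start were added after seeing the data. The subunit genes, the 4 lists and the alternatives were chosen with earlier results of these data known. Per-library values are given for subunit genes called in a comparison and for the largest rise and fall among those not called; of the 4 lists RPN4 and every called gene are named, or the 2 genes of lowest p where none was called, and of other genes with the element the 5 called genes of lowest p. Genes or values given beyond this rule (other list members, UBA1, neighbours of shared sites) were picked after their values were seen.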

Additional observations from a re-analysis of the deposited data

How the results depend on the processing

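The direction of the subunit family held in the alternatives tried: in the deletion strain over the wild type 32 or 33 of 33 log2 fold changes were above 0 under each of them. How many genes passed the threshold did not hold. Subunit genes that rose in the deletion strain numbered 11 and came to 3 without composition factors, 27 with limma-voom and 27 with the 6 libraries alone. They came to 3 at an adjusted p under 0.01 and 3 to 21 when a library was left out. Over all features 13.9% rose with limma-voom, 14.1% with the 6 libraries alone and 2.0% to 9.6% when a library was left out. Without composition factors the median log2 fold changes were 0.126 (all subunits), 0.194 (core), 0.091 (base) and 0.096 (lid), that of all features shifted to -0.049, and calls over all features were 3.1% higher and 5.3% lower, against 4.2% and 2.2%. Leaving out a library gave 0.227 to 0.261 for the core. Summed CPM without these factors was 3357 for the core and 5390 for the regulatory particle in the deletion strain, and 2983 for the core in the wild type. Subunit genes that fell in the construct strain relative to the deletion strain numbered 3 and came to 1 without composition factors and 5 with DESeq2. They came to 6 with limma-voom, 1 with 6 libraries, 1 at an adjusted p under 0.01 and 1 to 13 with a library left out. Over all features 5.1% fell with DESeq2, 6.5% with limma-voom, 2.1% with 6 libraries and 1.9% to 6.8% with a library left out.

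List genes that rose in the deletion strain (7) were 4 with median-of-ratios factors, 2 without composition factors, 11 with DESeq2, 18 with limma-voom, 18 with 6 libraries, 2 at an adjusted p under 0.01 and 2 to 16 with a library left out. Those that fell in the construct strain (2) were 0 without composition factors, 1 without the low-count filter, 1 with 6 libraries, 0 at an adjusted p under 0.01 and 0 to 4 with a library left out; those that rose (0) were 0 to 1. Other genes with the element that rose in the deletion strain (7 of 42, 16.7%) were 16 with limma-voom and 17 with 6 libraries. They were 3 at an adjusted p under 0.01 and 2 to 12 with a library left out. With GTGGCAAA 14 of 111 tested genes rose (12.6%), and with any of the 3 forms 17 of 102 (16.7%). With the 500-base window 9 of 73 rose (12.3%). Other genes with the element that fell in the deletion strain (0) were 1 without composition factors, 1 with DESeq2 and 3 with limma-voom. They were 3 with 6 libraries, 1 of 73 with the 500-base window and 0 to 2 with a library left out. In the construct strain relative to the deletion strain those that rose (0) were 1 with GTGGCAAA, with any of the 3 forms and with the 500-base window, and 0 to 2 with a library left out. Those that fell (3 of 42, 7.1%) were 5 with limma-voom, 1 with 6 libraries and 1 at an adjusted p under 0.01. They were 1 to 4 with a library left out. With GTGGCAAA 9 of 111 fell (8.1%), with any of the 3 forms 10 of 102 (9.8%) and with the 500-base window 5 of 73 (6.8%). The cause of these changes was not tested.

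Of the 11 calls in the deletion strain, those of SCL1 and SEM1 held without each library in turn and under each other setting tried. The log2 fold change of RPT4 in the deletion strain over the wild type was -0.022 without composition factors. That of RPT4 in the construct strain over the deletion ran from -0.007 to 0.051 with a library left out, and that of RPT6 in the construct strain over the wild type from -0.05 to 0.027, with 0.0 without wild-type replicate 3.

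The replicate numbers did not pair the libraries: same-numbered libraries correlated between -0.107 and 0.074 in their deviations from the group means. With the replicate block 9 subunit genes rose in the deletion strain and 1 fell in the construct strain relative to it, while list genes were 4 and 1. The construct libraries' wider spread limits both comparisons that use them. Because the fit shares 1 spread among the groups, it also enters the test of deletion over wild-type libraries. There 11 subunit genes rose with all 9 libraries and 27 without the construct group, and over all features 253 and 837. Without construct replicate 1, 2 or 3 the subunit counts were 9, 16 and 21. How much of these changes came from the spread was not tested.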
